A study of Mus musculus with 4 samples.

Results

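Snhg11 and other small nucleolar RNA (snoRNA) host genes were examined in bone marrow cells of mature and elderly mice. The set held the 9 genes Snhg1, Snhg3, Snhg5, Snhg6, Snhg7, Snhg8, Snhg11, Snhg12 and Gas5, picked by name. Of these, 7 were found in the annotation of the genome build that the counts use, and all 7 were among the 21340 genes tested. Snhg6 and Snhg8 were not found under those names or their older symbols and were not analysed here. Snhg11 was chosen because it differed between the ages in these same libraries, so its values are given as a description without a test. The question was whether the 6 other host genes followed it.

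The mice were wild-type C57Bl/6 males without treatment, aged 3 months (mature) or 24 months (elderly), with 2 libraries per age. Each library pooled the RNA of 3 or 4 mice, and an SD over 2 libraries is therefore a spread among pools. According to the labels the RNA came from whole marrow, whereas the study's methods describe a sort for marrow cells with the leptin receptor (LEPR) and without Ter119, CD31 and CD45 (Lin-). According to the labels poly(A) RNA was sequenced in all libraries. The study's methods except some samples, named only by abbreviations, which were prepared from total RNA. Whether any library used here is among them is not stated. The libraries held between 10472117 and 15650518 counts. The 12 stromal markers listed for LEPR+ cells were all counted in every library. Among them, Lepr had 6385 and 5636 CPM in mature and 4106 and 5787 CPM in elderly mice. By point estimate all 12 were lower in elderly mice. For 7 of them both elderly libraries lay below both mature ones, as they did for 18.0% of all genes. The 12 summed to 32130 and 32580 CPM in mature and 19700 and 28750 CPM in elderly mice. CPM are counts per 1000000 after scaling by library size and TMM factor (a correction for composition).

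SnoRNAs are short RNAs of the nucleolus that guide chemical modification of ribosomal and other RNAs. H/ACA snoRNAs direct pseudouridylation and C/D snoRNAs direct 2'-O-methylation, and in vertebrates most of them are cut out of introns after the host transcript has been spliced. Some hosts encode proteins, whereas others, such as Gas5 and the Snhg genes, leave a long noncoding RNA (lncRNA). Many hosts start transcription at a pyrimidine run, as ribosomal protein genes do (5'TOP), and several of their spliced RNAs are removed by nonsense-mediated decay (NMD). Gas5 is known for accumulating in growth-arrested cells, and Snhg11 is best known as a transcript of neurons.

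The snoRNAs inside the host genes show what each gene carries besides its spliced RNA. Snhg11 (chr2:158201374-158211881, plus strand, NCBI Build 37) holds 2 copies of the H/ACA snoRNA SNORA71 in its introns, at chr2:158203958-158204090 and chr2:158205270-158205402. The neighbouring host Snhg17, which this annotation lists as 9430008C03Rik, holds 3 further SNORA71 copies on the minus strand, of which that at chr2:158185534-158185665, the most similar to both copies of Snhg11, is shown. Snhg5 holds 2 copies of the C/D snoRNA SNORD50 (chr9:88416367-88416438 and chr9:88416635-88416706, minus strand). SNORD44 (chr1:162966813-162966872) is 1 of 9 intronic snoRNAs of Gas5, and Snora16a (chr4:131865380-131865515) is 1 of 4 of Snhg12, both on the plus strand. The sequences below are shown so that the copies can be compared, with capitals for the ACA box near the 3' end of H/ACA snoRNAs and for boxes C (TGATGA) and D (CTGA) of C/D snoRNAs.
SNORA71 of Snhg11, upstream copy: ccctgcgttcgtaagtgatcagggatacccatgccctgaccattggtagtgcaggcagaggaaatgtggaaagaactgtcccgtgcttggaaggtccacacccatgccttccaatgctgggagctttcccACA
SNORA71 of Snhg11, downstream copy: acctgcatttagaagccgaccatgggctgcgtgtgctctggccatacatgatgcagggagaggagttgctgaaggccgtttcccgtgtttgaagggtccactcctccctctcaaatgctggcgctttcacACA
SNORA71 of Snhg17, most similar copy: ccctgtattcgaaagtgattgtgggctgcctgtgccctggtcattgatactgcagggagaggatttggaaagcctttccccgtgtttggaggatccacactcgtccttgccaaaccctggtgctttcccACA
SNORD50 of Snhg5, downstream copy: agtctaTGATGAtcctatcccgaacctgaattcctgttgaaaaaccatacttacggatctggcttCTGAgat
SNORD50 of Snhg5, upstream copy: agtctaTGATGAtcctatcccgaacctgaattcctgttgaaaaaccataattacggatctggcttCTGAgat
SNORD44 of Gas5: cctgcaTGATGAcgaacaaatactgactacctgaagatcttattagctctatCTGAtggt
Snora16a of Snhg12: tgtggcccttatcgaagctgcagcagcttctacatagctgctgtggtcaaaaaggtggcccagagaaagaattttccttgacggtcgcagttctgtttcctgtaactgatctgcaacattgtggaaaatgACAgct

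The 2 copies inside Snhg11 shared 68.4% of aligned positions with each other, the upstream copy between 66.4% and 75% with the 3 copies of Snhg17, and the downstream copy between 60.0% and 74.1%. The lowest value of each was with the Snhg17 copy at chr2:158184096-158184208 and the highest with the copy shown. The SNORD50 copies of Snhg5 differed at 1 of 72 bases, written C50A with positions counted from the 5' end and the downstream copy first. The boxes were searched on the strand of each snoRNA and were found in 20 of the 24 intronic snoRNAs of the host genes.

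The start sites were set side by side because a pyrimidine run at the start is a feature that many host genes share. The sequences run from 15 bases before the annotated start to 25 bases from it (RefSeq, GRCm38.p6), with capitals for a run of at least 5 C or T that begins within 10 bases of the start.
Snhg11 (chr2:158375698-158375737): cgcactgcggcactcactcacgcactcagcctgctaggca
Snhg1 (chr19:8723472-8723511): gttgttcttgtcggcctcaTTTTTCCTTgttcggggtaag
Snhg12 (chr4:132308663-132308702): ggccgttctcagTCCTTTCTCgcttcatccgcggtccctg
Snhg5 (chr9:88522873-88522912): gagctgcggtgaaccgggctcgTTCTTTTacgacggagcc
Snhg7 (chr2:26640220-26640259): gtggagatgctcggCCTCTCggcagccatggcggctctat
Gas5, second start (chr1:161035151-161035190): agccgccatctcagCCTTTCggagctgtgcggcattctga
Snhg17, second start (chr2:158361485-158361524): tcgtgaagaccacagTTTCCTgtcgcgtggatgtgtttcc

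No such run was found at the Snhg11 start, where the longest was 3 bases, whereas Snhg1 and Snhg12 had 9, Snhg5 had 7, Snhg7 had 6 and Snhg3 had 5. Gas5 and Snhg17 each had a run of 6 at the second of their annotated starts and of 3 at the other. The run was searched on the strand of the gene, and it was found at 38.1% of the first annotated starts of 27025 genes and at 60.3% of those of 58 ribosomal protein genes. Over every annotated start, the second starts of Gas5 and Snhg17 included, these shares were 38.0% of 32851 and 55.7% of 70. These letters describe the window and do not show which start was used in these cells.

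The bases on which a host gene could be counted differed greatly between the genes. Reads on bases shared by several transcripts were not in the deposited counts, since each of the 25621 transcripts whose every exonic base is shared stood at 0 in all libraries. Snhg5 has 1 annotated transcript, so none of its 993 countable bases could lie in an intron of another isoform. For Snhg11, 33.4% of 6871 such bases lay in an intron of another isoform. For Gas5 this share was 96.0% of 906 bases, for Snhg7 94.5% of 1552, for Snhg1 99.8% of 625, for Snhg12 all of 444 and for Snhg3 70.1% of 77. The values of these 5 genes therefore rest mainly on bases that other isoforms splice out, which can be retained introns or exons that those isoforms skip. Reads on bases that their isoforms share were not counted. Among the members, Snhg5 and Snhg11 were counted mainly on bases that are not intronic.

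**Figure D1:**
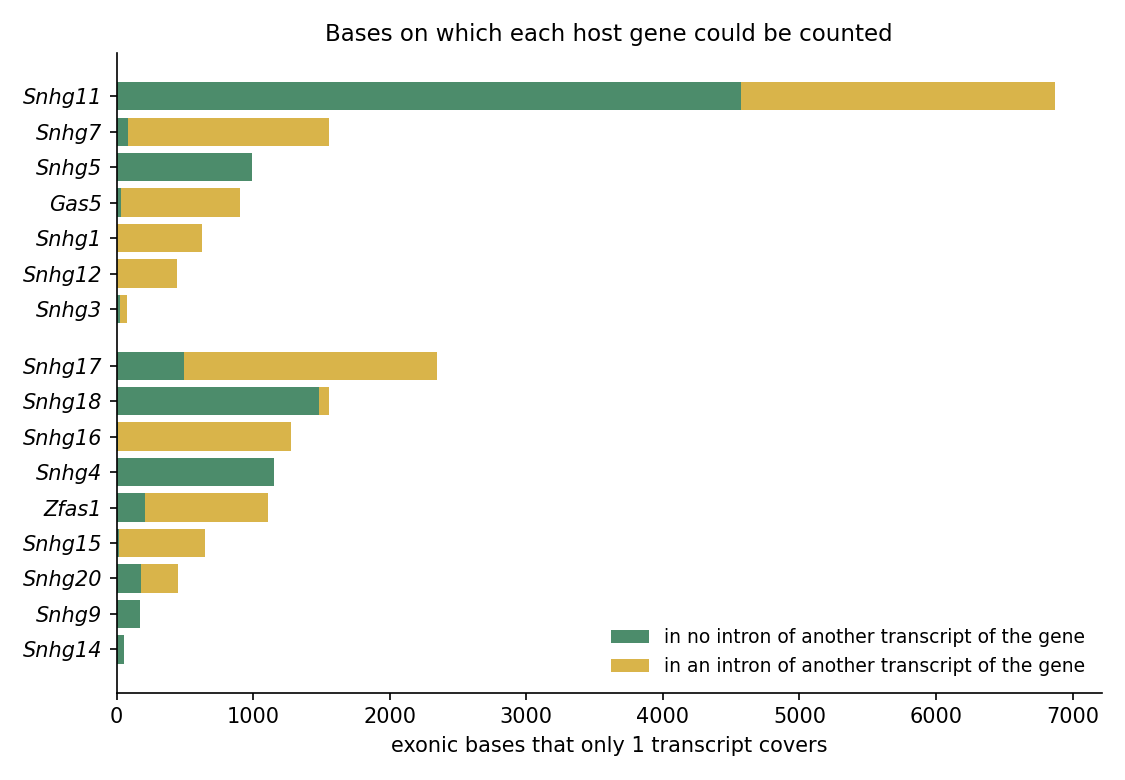
Horizontal bars give, for the 7 host genes (top) and 9 further lncRNA host genes (bottom), the number of exonic bases covered by only 1 transcript. Yellow marks the bases inside an intron of another transcript of the gene, which make up 96.0% for Gas5 and 0.0% for Snhg5, which has 1 annotated transcript.

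Snhg11 was low in both mature libraries and high in both elderly libraries. It had 182 and 142 counts in mature mice, or 15.7 and 12.2 CPM, and 4538 and 7292 counts in elderly mice, or 408 and 481 CPM. The ages did not overlap, and the mean was 13.9 ± 2.47 CPM (SD, n = 2) in the mature libraries, as against 444 ± 52.0 CPM (SD, n = 2). The log2 fold change, elderly over mature, was 5.0 (SE 0.25), or 31.9-fold, and lay between 4.78 and 5.19 when any 1 library was left out. In these bulk samples, more cells with the transcript and more transcript per cell cannot be told apart.

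Nearly all Snhg11 counts lay on 1 isoform. Snhg11-001, the spliced isoform with 5 exons, had 176 and 142 counts in mature and 4501 and 7269 counts in elderly mice, at least 96.7% of the counts of the gene in each library. Of its countable bases, 99.5% lay in the last exon (chr2:158206675-158211881, NCBI Build 37), which is downstream of both SNORA71 copies. Snhg11-003, which retains intron sequence and has 2298 countable bases, had 6 and 0 counts in mature and 37 and 23 in elderly mice. Both isoforms were thus higher in elderly mice, by 5.06 (SE 0.28) and 3.20 (SE 0.85) on the log2 scale. This annotation lists Snhg11 as protein-coding, whereas RefSeq lists it as a lncRNA.

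**Figure D2:**
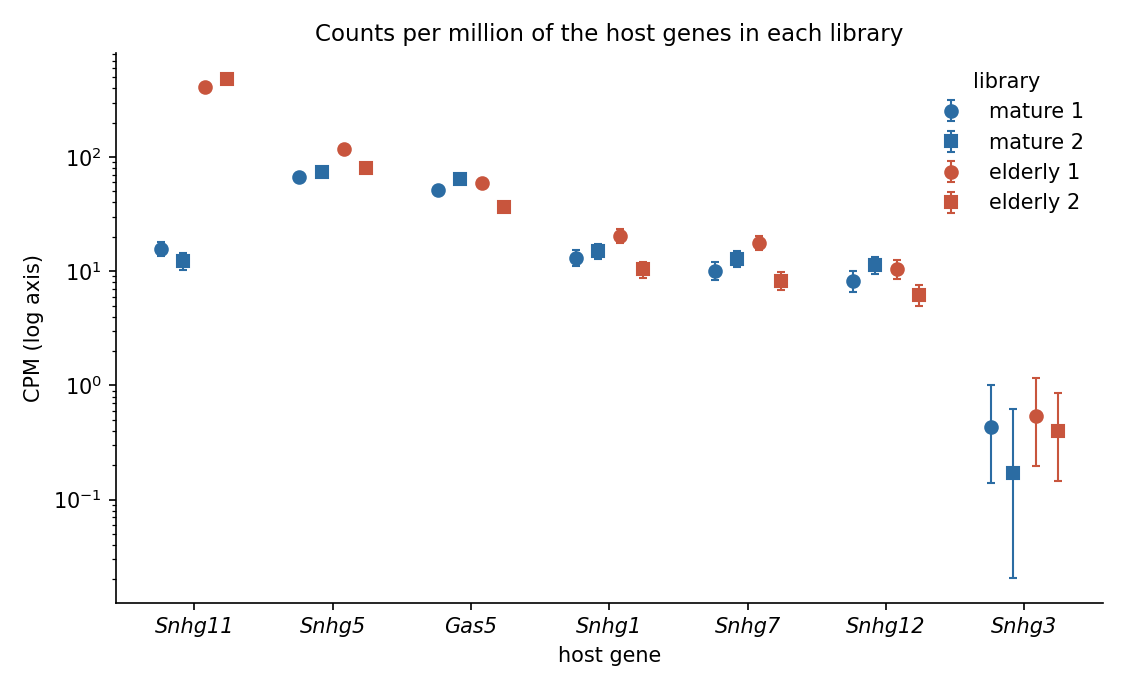
CPM (log axis) of each host gene in the 4 libraries, with blue for mature, red for elderly, circles for replicate 1 and squares for replicate 2. Bars are exact 95% Poisson intervals, which cover counting error only. Snhg11 moves from 12.2 and 15.7 to 408 and 481 CPM, while Snhg5, Gas5, Snhg1, Snhg7 and Snhg12 lie between 6.20 and 117.5 CPM and Snhg3 between 0.17 and 0.54 CPM in all libraries.

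None of the 6 other host genes was called. In edgeR's quasi-likelihood test, with p-values adjusted by Benjamini and Hochberg's method for all genes, 0 of 6 had an adjusted p under 0.05, where 2.73% of all genes did (583 of 21340, with 2.28% higher and 0.45% lower in elderly mice). With a log2 fold change over 2 in either direction as a further condition, 1.1% of all genes passed. At an unadjusted p under 0.05 the count was also 0 of 6, where 11.2% of all genes passed, and DESeq2 and edgeR's exact test also called 0. The point estimates were positive for 4 genes and negative for 2, and the sign of Snhg1, Snhg7, Snhg12 and Gas5 changed when 1 of the elderly libraries was left out (to -0.45 and -0.48 without replicate 1, and to 0.10 and 0.056 without replicate 2). Over all genes, 41 were called without elderly replicate 1 and 0 without elderly replicate 2, so each call given here for other genes was lost without replicate 2. For Snhg5 the elderly values were the 2 highest, and the ages overlapped for the other 5. Across all genes the ages did not overlap in 40.9%, with the elderly libraries above in 22.9% and below in 18.0%.

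Snhg5, the host of SNORD50, had 66.8 and 74.1 CPM in mature and 117.5 and 79.8 CPM in elderly mice. Elderly replicate 1 stood above the other 3 libraries, which lay close to each other. The log2 fold change was 0.49 (SE 0.23, adjusted p = 0.454, edgeR), with a 95% interval from -0.01 to 0.98. Without elderly replicate 1 it was 0.17, so 1 library decides its size.

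Gas5, the host with the most intronic snoRNAs in the set, had 51.0 and 64.0 CPM in mature and 59.7 and 36.6 CPM in elderly mice. Elderly replicate 2 was the lowest of the 4, and elderly replicate 1 fell between the mature libraries. The log2 fold change was -0.26 (SE 0.26, adjusted p = 0.805, edgeR), with an interval from -0.81 to 0.30.

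Snhg1, which carries several C/D snoRNAs, had 13.1 and 14.9 CPM in mature and 20.4 and 10.4 CPM in elderly mice. The elderly libraries thus lay on both sides of the mature ones, and the log2 fold change was 0.13 (SE 0.33, adjusted p = 0.943, edgeR). Snhg7, the host of Snora17 and Snora43, showed the same order, with 10.1 and 12.8 CPM in mature and 17.7 and 8.25 CPM in elderly mice (log2 fold change 0.18, SE 0.36, adjusted p = 0.932, edgeR). Their intervals reached from -0.59 to 0.84 and from -0.60 to 0.95.

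Snhg12, the host of Snora16a, Snora44, Snora61 and Snord99, had 8.18 and 11.3 CPM in mature and 10.4 and 6.20 CPM in elderly mice, and the ages overlapped. Its log2 fold change was -0.24 (SE 0.35, adjusted p = 0.891, edgeR), with an interval from -0.98 to 0.51. Snhg3, the host of the Snora73 genes, had between 2 and 6 counts in each library on its 77 countable bases. Its interval, from -2.11 to 3.37 on the log2 scale, shows that a change of considerable size was not detectable at this depth. The upper limits of the other 5 genes were 0.98 or lower, and the upper limit of each of the 6 lay below the estimate of 5.0 for Snhg11.

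**Figure D3:**
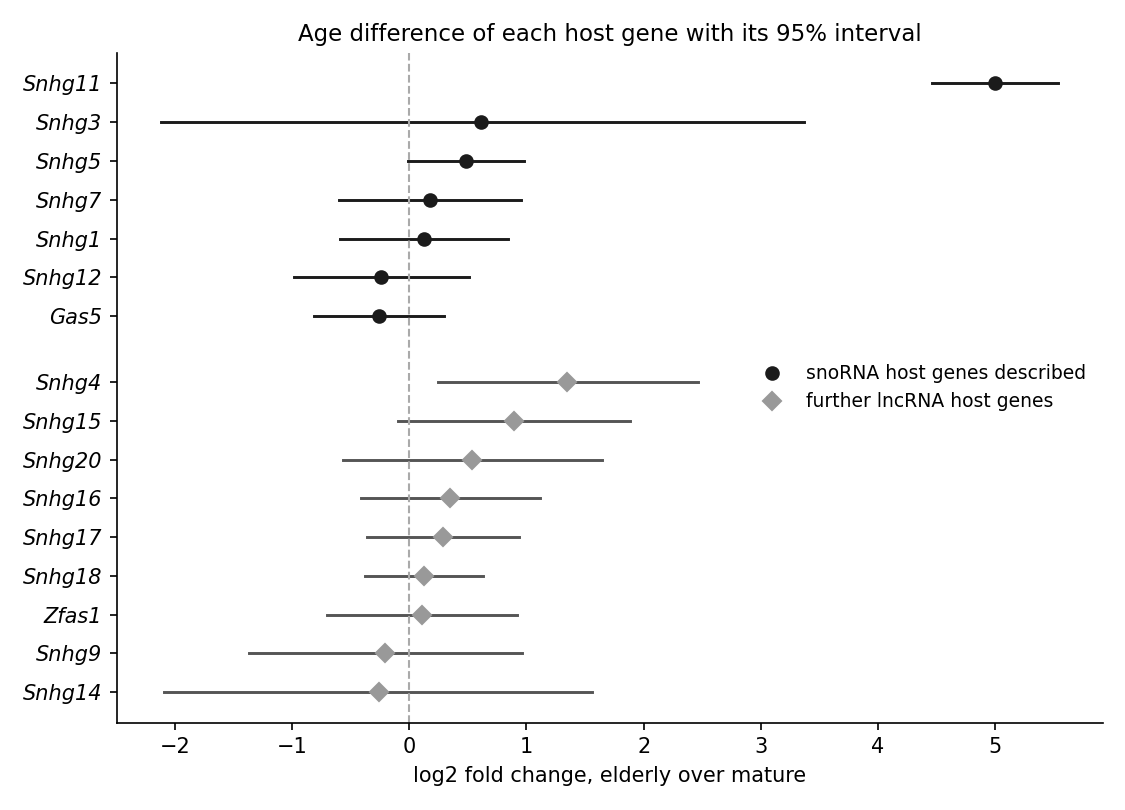
Log2 fold change (elderly over mature) of the 7 host genes (circles) and of 9 further lncRNA host genes (diamonds), with lines for the 95% interval of the fit. Snhg11 stands at 5.0, whereas the intervals of the other 6 genes in the upper block include 0.

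As a result, the rank of Snhg11 among the host genes differed between the ages. Against Gas5, the log2 ratio of CPM was 1.69 and 2.38 in favour of Gas5 in the mature libraries and -2.77 and -3.71 in the elderly libraries. Per kilobase of countable bases, Snhg11 was the lowest of the 7 in both mature libraries, at 2.28 and 1.77 CPM per kb. In elderly mice it stood at 59.3 and 70.02 CPM per kb, after Snhg5 and Gas5 in replicate 1 and after Snhg5 in replicate 2. Snhg5 was the highest in every library, between 67.3 and 118.3 CPM per kb, with Gas5 next in the mature libraries, at 56.2 and 70.6. These neighbours in the order overlapped in their range, as did Snhg1 (16.6 to 32.6) and Snhg12 (13.97 to 25.5), and Snhg7 (5.31 to 11.4) and Snhg3 (2.23 to 7.0). Because the countable bases of most of these genes lie in introns of other isoforms, this order is not an order of the spliced RNAs. Per isoform, Gas5-003 had 98.6 and 123.2 CPM per kb in mature and 115.8 and 70.5 in elderly mice. The transcript of Snhg5 had 65.8 and 74.0 in mature and 117.4 and 83.3 in elderly mice. Snhg11-001 had 87.7 and 108.6 in elderly mice, above Snhg5 in replicate 2 only. The order thus depends on which countable bases are pooled. Summed over the 6 genes besides Snhg11, the level was 149.5 and 177.3 CPM in mature and 226.3 and 141.7 CPM in elderly mice.

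The isoforms of the other host genes showed no called difference either. Of 16 transcripts tested for these 6 genes, 0 were called by edgeR's quasi-likelihood test, where 1.66% of all 42413 transcripts were, and DESeq2 and the exact test also called 0. At an unadjusted p under 0.05 the count was 1, the transcript of Snhg5. Gas5-003, with 477 countable bases that are all intronic in other isoforms, held between 88.7% and 94.4% of the Gas5 counts (559 and 691 in mature, 620 and 492 in elderly mice). Likewise 1 isoform held between 82.8% and 90.8% of the Snhg1 counts, and 1 held between 91.3% and 97.97% of those of Snhg7. For Snhg12, Snhg12-003 held between 39.7% and 48.9%, with the rest on 3 further isoforms.

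Isoform shares within a gene were also compared, a measure that the choice of the genes did not use for any gene but Snhg11. By edgeR's test of differential transcript usage, 0 of 8301 genes with several tested transcripts were called, with 404 (4.87%) at an unadjusted p under 0.05, and no other tool was run. For Snhg1, Snhg7, Snhg12 and Gas5 the adjusted p was 0.999 in each case. Snhg3 and Snhg5 had 1 tested transcript each and could not enter this comparison.

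The level of the 6 genes was higher in elderly replicate 1 than in elderly replicate 2, by between 0.56 (Snhg5) and 1.09 (Snhg7) on the log2 scale for 5 of them, whereas Snhg11 was lower by 0.24. The sixth, Snhg3, had 6 counts in each of both libraries, so its ratio of 0.33 reflects library size alone. These are descriptions of 2 libraries, without a test, and the log2 levels used for these ratios carry a prior count of 2. Among 14238 genes with a mean of at least 1 CPM, this ratio had a median of 0.01 and ran from -0.29 (lower quartile) to 0.40 (upper quartile). Snhg7, Snhg1, Snhg12, Gas5 and Snhg5 stood at its percentiles 95.7, 94.0, 88.7, 87.7 and 82.2. Between the mature libraries, 5 of the 6 were lower in replicate 1 than in replicate 2, with Snhg3 as the exception and Snhg12 the farthest, at -0.46. The share of counts on transcripts annotated as retained introns was 4.1% and 3.88% in mature and 3.91% and 3.03% in elderly mice, lowest in elderly replicate 2, as were Gas5, Snhg1, Snhg7 and Snhg12. The counted transcripts of these genes are annotated as other types. The part of this share in their values was not tested.

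**Figure D4:**
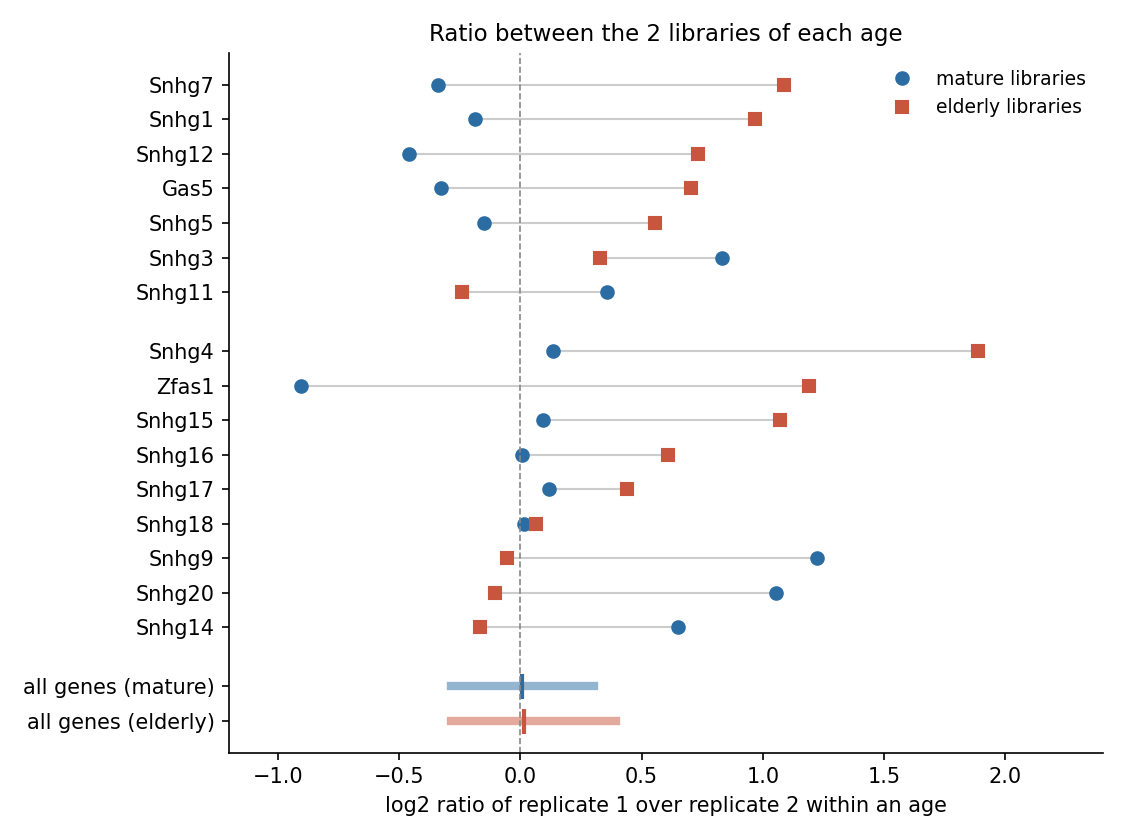
Log2 ratio of replicate 1 over replicate 2 within the mature (blue circles) and the elderly (red squares) libraries for each host gene, above bars for the quartiles and ticks for the median of all genes with a mean of at least 1 CPM. The red squares of the 6 genes besides Snhg11 in the upper block lie to the right of 0, between 0.33 and 1.09, and that of Snhg11 lies at -0.24.

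A wider list of lncRNA host genes was examined in the same way. Of 11 further hosts, 9 were found and tested, and 0 were called by edgeR's quasi-likelihood test, by DESeq2 or by the exact test. The first of these tests called 2.73% of all genes. At an unadjusted p under 0.05 the count was 1, where 11.2% of all genes passed. This was Snhg4, with 3.87 and 3.52 CPM in mature and 15.1 and 3.96 CPM in elderly mice. Its log2 fold change of 1.35 (SE 0.51, adjusted p = 0.280, edgeR) rested on elderly replicate 1, without which it was 0.08. Snhg15 had 2.75 and 2.57 CPM in mature and 6.83 and 3.17 CPM in elderly mice (log2 fold change 0.89, adjusted p = 0.518, edgeR), and elderly replicate 1 was again the high library. The log2 fold changes of the other 7 lay between -0.26 (Snhg14) and 0.53 (Snhg20). Zfas1, at 18.9 and 35.4 CPM in mature and 41.0 and 17.9 CPM in elderly mice, overlapped between the ages.

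No tested gene within 250 kb of Snhg11 had a log2 fold change above 2.58. Snhg17, the SNORA71 host 14.1 kb upstream on the other strand, had 10.1 and 9.26 CPM in mature and 13.7 and 10.03 CPM in elderly mice, and the ages overlapped. Its log2 fold change was 0.29 (SE 0.30, adjusted p = 0.816, edgeR), with an interval from -0.36 to 0.94. Downstream, Ralgapb at 23.7 kb had 12.8 and 12.2 CPM in mature and 12.6 and 8.91 CPM in elderly mice (log2 fold change -0.22, SE 0.30). Of the 11 genes within 250 kb that were tested, 1 was called, where 2.73% of all genes were. This was Lbp (lipopolysaccharide-binding protein) 42.8 kb upstream. It fell from 495.5 and 425.4 CPM to 247.6 and 254.8 CPM (log2 fold change -0.87, SE 0.20, adjusted p = 0.031, edgeR). Lbp was not called when any 1 library was left out, with log2 fold changes between -1.02 and -0.76 and an adjusted p between 0.110 and 0.602 (edgeR). D630003M21Rik, 146.4 kb upstream, had 6 and 3 counts in mature and 13 and 53 counts in elderly mice (log2 fold change 2.58, SE 0.78, adjusted p = 0.120, edgeR). Tgm2, Rprd1b and Actr5 had log2 fold changes of -0.19, 0.13 and -0.25. The remaining 4, 1700060C20Rik, Gm14200, Adig and Slc32a1, had 14 counts or fewer in every library.

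**Figure D5:**
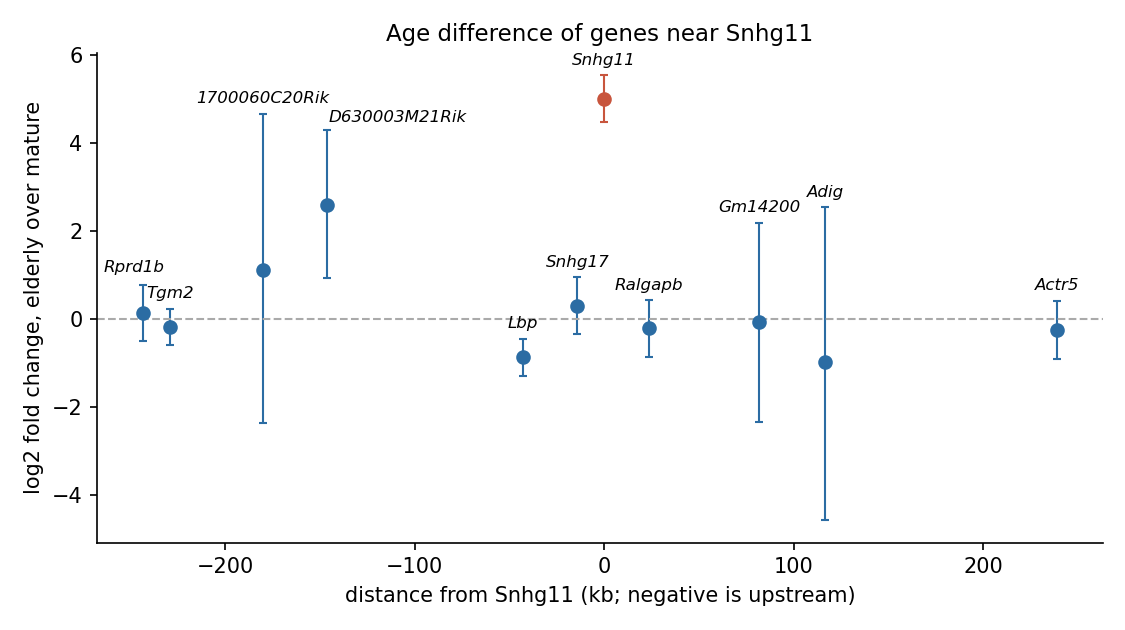
Log2 fold change (elderly over mature) with its 95% interval against the distance from Snhg11 in kb, upstream to the left, for Snhg11 (red) and the tested genes within 250 kb (blue). Slc32a1, for which the fit gave no standard error, is left out. Snhg11 stands at 5.0, Snhg17 at 0.29 and Lbp at -0.87.

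The genes whose pattern over the 4 libraries was most like that of Snhg11 were not host genes. Likeness was the root mean square difference of log2 CPM after removal of each gene's mean, over 14237 other genes and 4 libraries, so it mainly picks genes with a similar difference between the ages. The log2 CPM carry a prior count of 2, which sets the difference of genes with few or no counts in mature mice. The nearest were Igkc, the constant region of the immunoglobulin kappa light chain (0.19), the pseudogene Gm15433 (0.24), the carboxylesterase gene Ces1d (0.27), the immunoglobulin variable gene Gm16841 (0.28) and Prdm1, a transcription factor gene of plasma cells (0.30). Igkc had 17.9 and 15.2 CPM in mature and 424 and 418 CPM in elderly mice. Ces1d had 1.46 and 0.69 CPM in mature and 27.1 and 31.4 CPM in elderly mice. Gm15433 and Prdm1 had 0 counts in both mature libraries, against 48 and 112 and against 45 and 51 in the elderly ones, and Gm16841 had 4 and 2 counts in mature and 153 and 331 in elderly mice. The nearness of these 3 to Snhg11 therefore depends on the prior count. By the same measure the other host genes besides Snhg3 differed from Snhg11 by between 2.29 (Snhg5) and 2.67 (Gas5). Snhg3, with a mean under 1 CPM, was not compared. For Gas5, the 3 nearest genes were B930095G15Rik, Prdm15 and Chad, at 0.02, 0.03 and 0.03, and Snhg12 was rank 14 of the 14237, at 0.05.

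Markers of other cells were set beside Snhg11, and their part in its difference was not tested. Of 7 plasma cell markers tested, 2 were called higher in elderly mice, Jchain and Prdm1, by all 3 tools. Over all genes, edgeR's quasi-likelihood test called 2.28% higher. Jchain, the joining chain of secreted antibodies, rose from 4.56 and 2.4 CPM to 53.5 and 60.3 CPM (log2 fold change 4.03, SE 0.32, adjusted p = 5.6e-05, edgeR). Jchain was not called without elderly replicate 2 (log2 fold change 3.94), and Prdm1 was not called without either elderly library. Of the 7, 4 had a positive and 3 a negative log2 fold change. Sdc1 had 76.6 and 62.9 CPM in mature and 42.2 and 55.5 CPM in elderly mice (log2 fold change -0.51, SE 0.23, adjusted p = 0.400, edgeR), and Xbp1 had 58.3 and 51.2 CPM in mature and 45.1 and 42.0 CPM in elderly mice (log2 fold change -0.33, SE 0.21, adjusted p = 0.648, edgeR), so both elderly values lay below both mature ones. These 2 genes, which other cells also express, made up most of the summed level of the list in each library, which was 146.9 and 124.7 CPM in mature and 163.4 and 172.5 CPM in elderly mice. Irf4 was listed at 0 but had 3 countable bases. Of the 14 neuronal markers, 6 were at 0 in every library (Syt1, Nefl, Stmn2, Gap43, Elavl4 and Syn1). The list summed to 4.65 and 9.95 CPM in mature and 16.8 and 14.1 CPM in elderly mice. Its median log2 fold change was 0.87, with 5 genes positive and 3 negative. Of the 8 neuronal markers tested, 0 were called by edgeR's quasi-likelihood test, DESeq2 or the exact test. At an unadjusted p under 0.05 the count was 3, where 11.2% of all genes passed. Snap25 had between 0 and 4 counts and Tubb3 had 5 and 20 counts in mature and 53 and 67 in elderly mice.

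Markers of several other lineages were called higher in the elderly libraries, and their part in the difference of Snhg11 was not tested either. Over all genes, edgeR's quasi-likelihood test called 2.28% higher and 0.45% lower, and 11.2% had an unadjusted p under 0.05. Of 10 erythroid markers tested, 8 were called higher. The erythroid list summed to 448 and 202 CPM in mature and 1495 and 1347 CPM in elderly mice. Among neutrophil markers 7 of 11 were called higher (2118 and 1216 CPM against 4557 and 4497 CPM). Among markers of dividing cells 5 of 12 were (408.5 and 190.9 CPM against 1058 and 762 CPM). Among Schwann cell markers 2 of 8 were (98.3 and 81.7 CPM against 190.3 and 161.9 CPM). Of 8 macrophage markers 4 were called higher, and 2 had a negative log2 fold change. The macrophage list summed to 3516 and 3294 CPM in mature and 2005 and 3441 CPM in elderly mice. Most of this was Vcam1, which is also on the LEPR+ list, at 3489 and 3268 CPM against 1953 and 3353 CPM. Among osteoblast markers 2 of 9 were called higher (Col1a1 and Phex) and 1 lower (Ibsp). All 12 stromal markers of LEPR+ cells were lower in elderly mice by point estimate. The lists for LEPR+ stroma (12 tested), B-lineage cells (9), megakaryocytes (7), eosinophils (6), T cells (7) and endothelial cells (6) held 0 calls by edgeR's quasi-likelihood test. At an unadjusted p under 0.05 the counts were 3, 4, 0, 0, 4 and 2. In the same order, the median log2 fold changes were -0.44, 0.78, 0.06, -0.23, 2.22 and 0.83. All 7 T cell markers were positive, and for 6 both elderly libraries lay above both mature ones, where 22.9% of all genes did. The T cell list summed to 5.08 and 10.4 CPM in mature and 25.6 and 21.8 CPM in elderly mice. DESeq2 called 2 of the T cell and 1 of the endothelial markers, and the exact test called 1 of the B-lineage and 1 of the T cell markers.

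The machinery that works on host genes and snoRNAs was described by 4 lists. Among proteins of snoRNA particles, 1 of 20 tested genes was called, where 2.73% of all genes were. The list median of the log2 fold change was 0.34, against 0.02 over all genes. Nop58, a core protein of C/D particles and itself a host of 4 intronic snoRNAs, rose from 54.3 and 63.5 CPM to 137.2 and 99.96 CPM (log2 fold change 1.01, SE 0.22, adjusted p = 0.029, edgeR), and DESeq2 also called 1 gene whereas the exact test called 0. Nop58 was not called when any 1 library was left out, with log2 fold changes between 0.75 and 1.22 and an adjusted p between 0.069 and 0.602 (edgeR). Fbl, the methyltransferase of the same particle, had 14.03 and 13.4 CPM in mature and 24.7 and 17.4 CPM in elderly mice (log2 fold change 0.62, adjusted p = 0.419, edgeR) and was picked after its value was seen. Nucleolin (Ncl), the most abundant of the list, had a log2 fold change of 0.24 (SE 0.22).

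Over all genes, edgeR's quasi-likelihood test called 2.73%, and 11.2% had an unadjusted p under 0.05. Of 99 tested 5'TOP translation genes, 0 were called by this test. At an unadjusted p under 0.05 the count was 10, and the median log2 fold change was 0.12. The exact test called 0 and DESeq2 called 2, Tpt1 and Rpl10, both lower in elderly mice. Eef2 had a log2 fold change of 0.28 (SE 0.20) and Rpl4 of 0.60 (SE 0.21, adjusted p = 0.232, edgeR). Of 24 NMD factors, 0 were called by any of the 3 tools, with 1 (Upf3b) at an unadjusted p under 0.05 and a median of 0.01. Upf1, the central helicase of NMD, had 351 and 405 CPM in mature and 349 and 375 CPM in elderly mice. Of 9 nuclear noncoding RNAs, 0 were called by any of the 3 tools and 0 passed at an unadjusted p under 0.05, with a median of -0.21. Malat1 had a log2 fold change of -0.24 (SE 0.21) and Neat1 of -0.43 (SE 0.22).

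Host genes as a whole class were picked from the annotation, as genes with a snoRNA inside an intron on the same strand. Without Snhg11, 303 genes were such hosts and 273 were tested, of which 6 were called (2.20%, where 2.73% of all genes were), with a median log2 fold change of -0.02. Those called higher in elderly mice were Kcnh7, Phex, Nop58 and Top2a, and those called lower were St8sia2 and Mpped2. Their changes lay between 1.01 and 1.61 or between -1.54 and -1.49 on the log2 scale. Phex, a gene of bone-forming cells, rose from 58.7 and 44.5 CPM to 119.2 and 164.2 CPM, and St8sia2, a polysialyltransferase gene, fell from 38.7 CPM in both libraries to 11.7 and 15.8 CPM. Both calls were lost without either elderly library, with log2 fold changes then between 1.21 and 1.65 for Phex and between -1.73 and -1.31 for St8sia2. None of the 6 was called without either elderly library. Among the 26 tested hosts that are not protein-coding in this annotation, 0 were called by edgeR's quasi-likelihood test, DESeq2 or the exact test. At an unadjusted p under 0.05 the count was 1 (Snhg4), where 11.2% of all genes passed. The median log2 fold change of these hosts was 0.17.

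The snoRNAs themselves were hardly counted, and poly(A) selection does not target them. Of 24 intronic snoRNA genes of the members, 20 had 0 counts in every library, and for all 20 every base is also covered by another annotated transcript, so that the counting allowed no counts. The other 4 share no base. Snora16a of Snhg12 had 105 and 72 counts in mature and 53 and 92 counts in elderly mice, so the ages overlapped. The SNORD50 copies of Snhg5 had between 7 and 27 counts in each library. Of the SNORA71 copies of Snhg11, the downstream copy had 1 count in elderly replicate 1 and 0 in the other 3 libraries, too few to show a change, and the upstream copy is 1 of the 20 that could not be counted.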

How the data were processed

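RNA-seq was done on 4 libraries of bone marrow (sorted Lin-LEPR+ cells in the study's methods, whole marrow in the labels), 2 per age, grouped by the titles of the labels. The authors trimmed with CutAdapt, aligned to mm9 (NCBI Build 37) with HISAT2 and ran featureCounts. What they deposited are raw counts per Ensembl transcript, without a filter or normalization. The kit kept strand, but 807 transcripts covered only by transcripts of the opposite strand also had 0 counts, so overlapping genes on either strand lose their shared bases. Of 95883 transcripts, 388 (between 0.0785% and 0.0888% of counts) were not matched to GENCODE M1 and were left out.

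Counts were summed per gene symbol. Features with more than 2 counts over the 4 libraries were normalized by TMM and compared by edgeR 4.0.16 (R 4.3.3) with the two-sided quasi-likelihood test, without covariates, and called at a Benjamini-Hochberg adjusted p under 0.05. This was done per gene (21340), per transcript (42413) and, with diffSpliceDGE, for isoform shares. Fold changes use a prior count of 0.125, and log2 CPM a prior count of 2. The study's exact test at a dispersion of 0.2 and DESeq2 1.42.0 were alternatives, as were other filters, scalings and fits and each library left out. No permutation of 2 against 2 libraries reaches a p under 0.333, so adjusted p-values rest on variance shared across genes. That variance was estimated from the differences between libraries of the same age.

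The members, the lists and the wider hosts were chosen with earlier results of these data known. The genes named are the members, the called (up to 5) and 2 most abundant genes of each list, the genes within 250 kb of Snhg11, the 5 genes most like Snhg11 and the 3 most like Gas5 in pattern, and the called annotated hosts, with a few others named as such. On simulated counts, the test recovered 184 of 200 changed genes among 20692, 86% at 4-fold and 98% at 16-fold. Of its 195 calls, 11 were false. The changed genes were drawn from well-counted genes only. Smaller changes, and genes with counts as low as those of Snhg3, were not simulated. The titles number the samples of each age as mouse 1 and mouse 2. Whether equal numbers share a batch is not stated, and the main fit did not pair them. Intervals of single libraries cover counting error only. Sequences were read from NCBI Build 37 and from RefSeq (GRCm38.p6), where the 2 builds were kept apart.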

Additional observations from a re-analysis of the deposited data

How the results depend on the processing

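Of the 6 members besides Snhg11, 0 were called under each alternative that keeps all libraries. Among these, a log2 fold change over 2 as a further condition can only remove calls. Snhg3 did not pass edgeR's filterByExpr filter and had no adjusted p in DESeq2, so neither setting could call it. The log2 fold change of Snhg11 lay between 4.97 and 5.04 under the alternatives that keep all libraries and between 4.78 and 5.19 without 1 library. The number of called genes (583) moved to 233 with the exact test, 1157 without a filter, 910 with the robust fit and 235 with a log2 fold change over 2 as a further condition, and lay between 0 and 866 without 1 library. Called transcripts (704) moved to 204, 1132, 1155 and 344 under the same 4 settings and to 398 without TMM factors, and lay between 0 and 789 without 1 library. Called annotated hosts (7, Snhg11 included) moved to 1, 14, 11 and 1 under the same 4 settings and lay between 0 and 9 without 1 library. Isoform usage calls (0) lay between 0 and 2 without 1 library. The cause of these shifts was not tested, except that leaving out a library leaves an age with 1 sample, assumed to vary like the others.

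Signs of uncalled genes depended on elderly replicate 1 for Snhg1 (-0.45 without it), Snhg7 (-0.48), Snhg16 (-0.005) and Zfas1 (-0.61), on elderly replicate 2 for Snhg12 (0.10) and Gas5 (0.056), and on mature replicate 1 for Snhg9 (0.59), Snhg14 (0.18) and Zfas1 (-0.27). The other end of the range without 1 library was 0.54 for Snhg1, 0.63 for Snhg7, 0.63 for Snhg16, 0.59 for Zfas1, -0.67 for Snhg12, -0.67 for Gas5, -0.76 for Snhg9 and -0.64 for Snhg14. Snhg4 became called without a filter (1.34, adjusted p = 0.019, edgeR), within a range of its adjusted p from 0.019 to 0.975 over the alternatives.

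With the replicate number as a block, 1262 genes, 1239 transcripts and 15 annotated hosts were called, and Snhg4 was called at 1.11 (adjusted p = 0.048, edgeR). The deviations of libraries with the same number correlated by 0.04 over 14238 genes. With 2 libraries per age, this value cannot show whether equal numbers share a batch, which is not stated. Genes with few countable bases, such as Snhg3, limit what depth can show.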
